A study of Homo sapiens with 12 samples.

Results

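The comparison described here set A549 cells lacking thymidylate synthase that had been grown in co-culture against the same knockout cells grown alone. Its members were the 3 libraries labelled TS-KO co-culture and the 3 labelled TS-KO, chosen by their labels and column names, and together they made up 6 of the 12 libraries of the series. A549 is an established line of human lung adenocarcinoma, grown in high-glucose DMEM with serum. In all 6 libraries Cas9 had been directed at TYMS with the same guide (gTYMS2), and RNA was sequenced 14 days after transduction, with no other treatment named. According to the series text the co-culture partner was parental A549, and proliferation of the knockout cells recovered beside it. The labels do not say whether or how the partner cells were removed before RNA was taken. They also do not say whether the knockout cells were a pool or 1 clone. The other 6 libraries carried a non-targeting guide (gNTC1), 3 alone and 3 in co-culture with cells the labels do not name, and entered the fit to estimate the spread and the interaction.

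Thymidylate synthase methylates dUMP to dTMP with a folate cofactor and is the cell's own source of thymidylate for DNA synthesis. Cells without it can live on thymidine from outside, which thymidine kinase turns into dTMP, and small nucleotides can also pass between touching cells through connexin channels. Proliferating cells transcribe separate waves of genes, one for DNA replication around the start of S phase and one for mitosis in G2, while stressed or arrested cells often transcribe p53 targets and NF-kB-driven chemokines and cytokines. The comparison asks how the transcriptome of knockout cells differed once they grew beside thymidylate-competent cells.

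Library totals ran from 16294608 to 20829495 counts alone and from 23277949 to 35723762 counts in co-culture, and the biological coefficient of variation was 22.1%. Co-cultured replicates 2 and 3 stood apart from each other along transcript GC content. Each library's log2 difference from the mean of its own group was ranked against GC over 13574 genes (genes are no replicates). The rank correlations were -0.63, 0.13 and 0.63 in lone replicates 1 to 3. They were 0.43, 0.80 and -0.82 in co-cultured replicates 1 to 3. In the 10% of genes with the lowest GC content, co-cultured replicate 2 lay 0.69 below its group mean on the log2 scale and replicate 3 lay 0.78 above it. Counts of called genes are therefore given under 3 fits: all 12 libraries, the fit without co-cultured replicate 3, and the fit in which a smooth trend along GC was removed from each library. Levels are given in CPM, counts per 1e6 counts after scaling of library sizes, for replicates 1 to 3 in that order. The keratin KRT8 was at 3034, 3965 and 4180.0 CPM alone and 3267, 3703 and 2364 CPM in co-culture. The keratin KRT18 was at 1791, 2443 and 2554 CPM alone and 1628, 1884 and 1265 CPM in co-culture. Of the 3 fits, only that with GC offsets called KRT8 and KRT18 lower (edgeR adjusted p = 0.000626 and 0.000149). In the full fit neither was called (edgeR adjusted p = 0.463 and 0.152). AKR1B10, an aldo-keto reductase for which A549 is known, was at 2206, 2508 and 2448 CPM alone and 2199, 2442 and 1897 CPM in co-culture. The epithelial marker EPCAM was nearly absent, at 0.550, 0.398 and 0.913 CPM alone and 0.517, 0.149 and 0.299 CPM in co-culture. The keratin KRT19 was at 215, 249 and 301 CPM alone and 486, 546 and 305 CPM in co-culture, with no overlap, and was called higher without co-cultured replicate 3 and with GC offsets but not in the full fit (edgeR adjusted p = 0.00306, 0.00426 and 0.0521). CDKN2A, CDKN2B and MTAP, genes of the 9p21 locus that A549 is known to lack, summed to 0.302 to 0.746 CPM in the 6 knockout libraries but to 121.8 to 165.6 CPM in the 6 libraries labelled control. The latter thus go against their cell line label, and each value that uses them is given as one of the libraries labelled control. MAGEB2, GTSF1 and TNFRSF18, which summed to 218 to 299 CPM in those libraries, had no count in the lone knockout and a single TNFRSF18 count in the co-cultured knockout. That count, and all 4 CDKN2A counts of the knockout libraries, were in co-cultured replicate 2. For RNA of parental A549 the lists hold no marker beside TYMS itself, so its part in the co-cultured libraries was not tested.

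**Figure D1:**
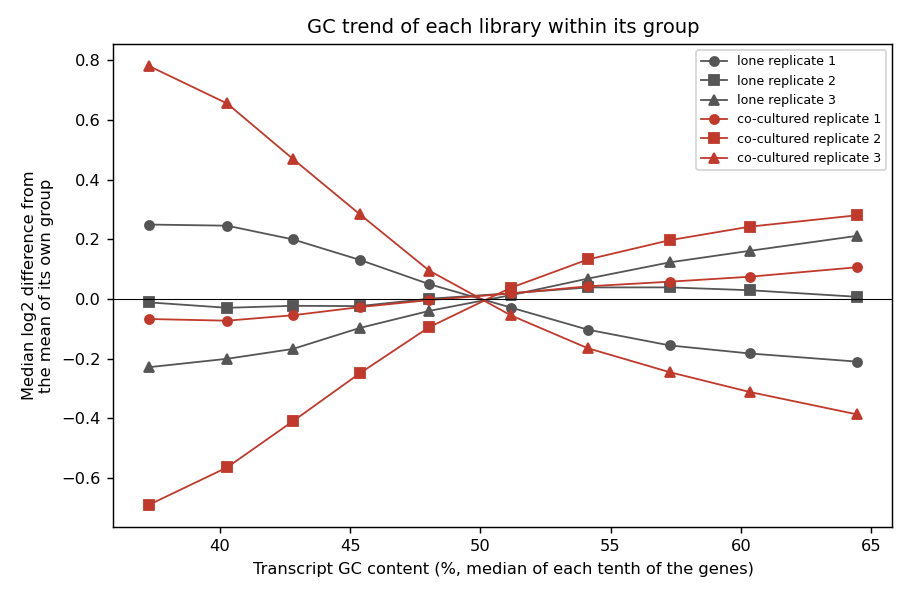
Median log2 difference of each knockout library from the mean of its own group (vertical axis) against transcript GC content in percent (horizontal axis), for 10 bins of 13574 genes ordered by GC. Grey lines are lone and red lines co-cultured libraries. Co-cultured replicates 2 and 3 run in opposite directions, from -0.69 and 0.78 at the lowest GC to 0.28 and -0.39 at the highest.

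A gene was called where its edgeR p, adjusted over all genes tested, was under 0.05, and a log2 fold change is the co-cultured over the lone knockout. The test covered 16768 genes and called 1001 (5.97%) higher and 906 (5.4%) lower, together 11.4%. Among the called genes, 491 rose and 568 fell by at least 2-fold. The values of the 2 groups did not overlap, with co-culture higher, in 2792 genes (16.7%), and with co-culture lower in 2493 genes (14.9%). Without co-cultured replicate 3, 2077 genes (12.2%) were called higher and 3603 (21.2%) lower, so that 33.4% were called in either direction. With GC offsets, 1724 (10.4%) were called higher and 3015 (18.3%) lower, together 28.7%. All 3 fits called 828 genes higher (4.94%) and 847 lower (5.05%), together 9.99%. Leaving out any 1 of the knockout libraries moved the number of calls by over 1.5 times, to 603, 654 and 1026 without lone replicates 1 to 3 and to 536, 819 and 5680 without co-cultured replicates 1 to 3. The share of calls that were higher was 52.5% in the full fit, 69.6% when libraries were scaled by their totals only, 36.4% with GC offsets and 36.6% without co-cultured replicate 3. GC offsets also moved the all-gene median of the log2 fold change from 0.01 to -0.11, so medians of gene lists under those offsets are relative to that value. Replicate 3 had the least changed value of the 3 co-cultured libraries in 83.4% of the genes called lower and in 65.7% of those called higher. Genes called lower had a median transcript length of 6062 bases and 44.6% GC, against 2685 bases and 53.2% GC for those called higher and 3250 bases and 49.7% GC for all genes tested. With GC offsets these medians were 4921 bases and 49.2% GC for genes called lower, and 2714 bases and 45.3% GC for those called higher.

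The targeted gene was measured first. TYMS (ENSG00000176890, on GRCh38 chromosome 18, 657604 to 673578, plus strand) was measured at 20.3, 20.96 and 21.4 CPM alone and 11.4, 11 and 10.7 CPM in co-culture. All co-cultured libraries lay below all lone ones, and the level fell in co-culture (log2 fold change -0.92, edgeR adjusted p = 0.000307, SE 0.11; two-sided exact permutation p = 0.1, the smallest that 3 against 3 libraries allow). TYMS counts were thus present in both groups and lower, not higher, beside thymidylate-competent cells. The mean was 95.4 CPM in lone and 93.4 CPM in co-cultured libraries labelled control. Cas9 cuts DNA and need not remove the transcript, so these levels do not measure the enzyme. ENOSF1 and TYMSOS share exonic sequence with TYMS, and the strand setting of the counting is not given in the sources used here, so part of these counts may belong to those genes. In bulk RNA, fewer cells of a type and less RNA per cell cannot be told apart, here and in every result that follows.

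**Figure D2:**
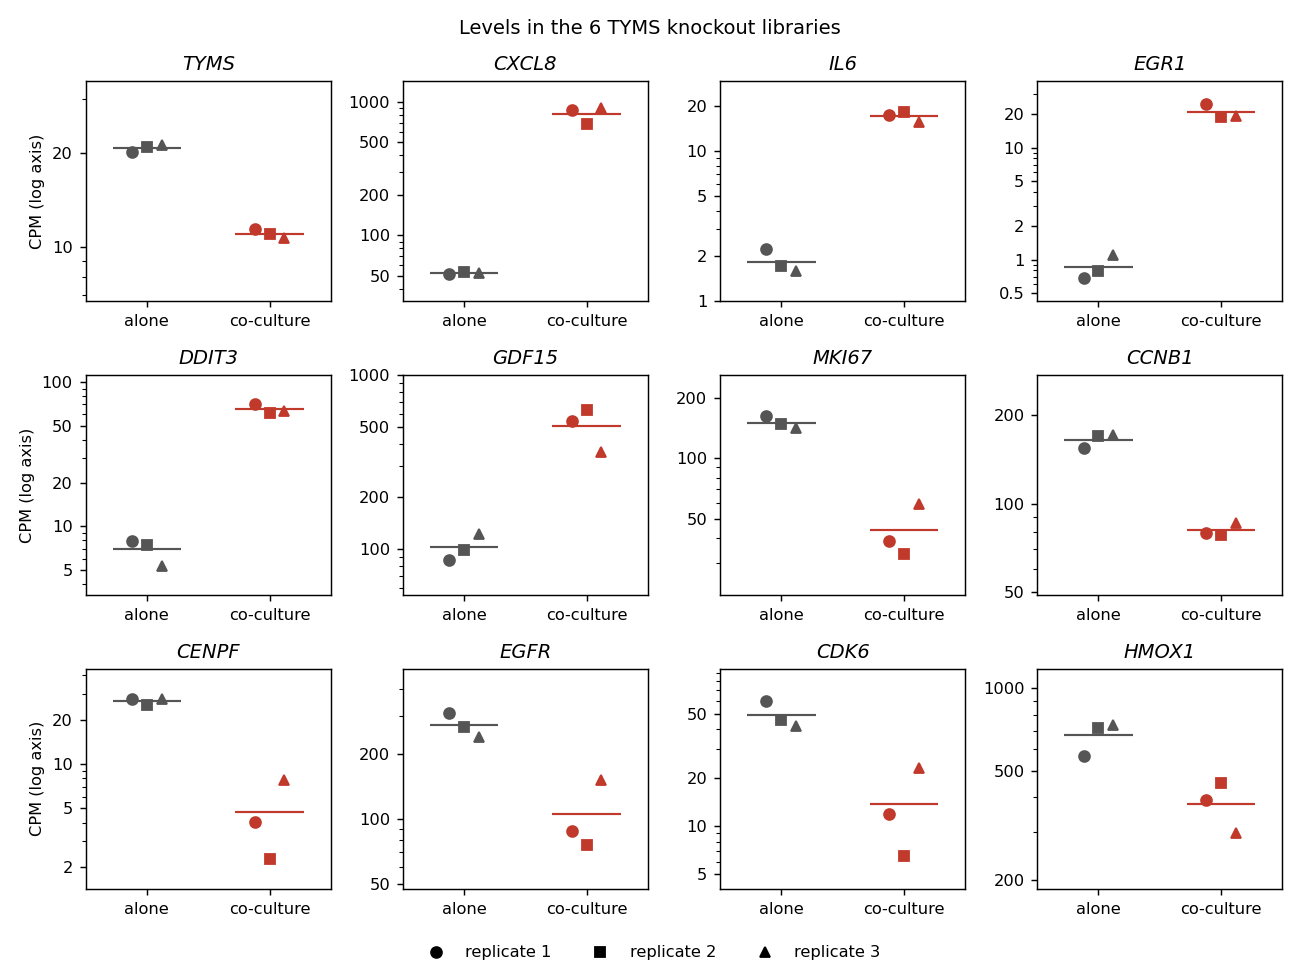
Levels of 12 genes in CPM (vertical axes, log scale) in the lone (grey) and co-cultured (red) TYMS knockout libraries. Symbols mark the replicates and horizontal lines the mean of 3 libraries. In each of the 12 panels the groups do not overlap, with co-culture higher for CXCL8, IL6, EGR1, DDIT3 and GDF15 and lower for TYMS, MKI67, CCNB1, CENPF, EGFR, CDK6 and HMOX1.

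Chemokines, small secreted proteins that draw leukocytes, showed the highest median change of the 24 gene lists examined. Of 17 listed, 12 were tested, 10 rose and none fell, where 5.97% of all genes tested rose. The median log2 fold change over the 12 was 2.88, against 0.01 over all genes tested. The same 10 were called by all 3 fits, which called 4.94% of all genes higher. Calls among chemokines were 11 higher and none lower without co-cultured replicate 3 (12.2% and 21.2% of all genes), and 10 higher and none lower with GC offsets (10.4% and 18.3%). The other 5 members did not pass the filter on low counts, among them CXCL10 and CXCL11, the interferon-induced ligands of CXCR3. The neutrophil-attracting CXC ligands CXCL1, CXCL2, CXCL3, CXCL5, CXCL6 and CXCL8, which sit together on chromosome 4, were 6 of the 10. CXCL1 (ENSG00000163739; GRCh38 chromosome 4, 73869393 to 73871242, plus strand) stood at 80.3, 66.7 and 62.3 CPM alone and 1055, 1228 and 1074 CPM in co-culture. Its co-cultured libraries were close to each other and far above the lone ones (log2 fold change 4.003, edgeR adjusted p = 1.71e-07, SE 0.18). CXCL8, which encodes interleukin-8, stood at 51.4, 53.1 and 52.6 CPM alone and 868, 688 and 897 CPM in co-culture (log2 fold change 3.97, edgeR adjusted p = 9.07e-07, SE 0.23). The lone libraries were nearly equal, and every co-cultured library, including the lowest, replicate 2, lay above them. CXCL2 went from 11.5, 8.17 and 8.21 CPM to 88.8, 98.9 and 93.7 CPM (log2 fold change 3.33, edgeR adjusted p = 8.24e-07, SE 0.19), and CXCL3 from 12.7, 12.2 and 9.31 CPM to 108, 115 and 103 CPM (log2 fold change 3.25, edgeR adjusted p = 2.14e-07, SE 0.16). CXCL1, CXCL2 and CXCL3 are near-identical copies, so reads of one may have been lost or counted for another. CXCL5 was already abundant alone and went from 262, 195 and 251 CPM to 946, 844 and 1398 CPM (log2 fold change 2.17, edgeR adjusted p = 0.000163, SE 0.24), with replicate 3 the highest.

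The other chemokines that rose were CC ligands. CCL2, which draws monocytes, stood at 62.4, 62.3 and 60.7 CPM alone and 228, 226 and 273 CPM in co-culture (log2 fold change 1.97, edgeR adjusted p = 1.63e-05, SE 0.16). Its groups were tight and did not overlap. CCL20, a ligand of CCR6, had 3, 1 and 0 counts alone and 26, 33 and 30 counts in co-culture (edgeR adjusted p = 0.000884). The CXC ligand CXCL6 had 0, 3 and 1 counts alone and 17, 40 and 34 in co-culture (edgeR adjusted p = 0.00185). No fold is given for either because the lone libraries were near the limit of detection. CCL5 went from 0.296, 0.0498 and 0.487 CPM to 1.12, 1.79 and 1.72 CPM (log2 fold change 2.50, edgeR adjusted p = 0.017, SE 0.57). CCL26, an eosinophil attractant, went from 1.14, 1.79 and 1.40 CPM to 2.33, 3.94 and 2.87 CPM (log2 fold change 1.08, edgeR adjusted p = 0.0391, SE 0.30). The 2 members that were tested and not called were the membrane-bound chemokines CXCL16 (19.4, 20.02 and 21.6 CPM alone and 26.3, 32.9 and 22.9 CPM in co-culture; edgeR adjusted p = 0.0999) and CX3CL1 (0, 2 and 0 counts alone and 2, 10 and 3 in co-culture; edgeR adjusted p = 0.129).

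The 250 bases before the start of CXCL1 are shown because the gene had the highest log2 fold change of the chemokines for which one is given, and its promoter holds the letters GGNNNTTCC, a loose form of the site that NF-kB binds. The sequence is from RefSeq on GRCh38.p14 (chr4:73869143-73869392, plus strand), with matches on either strand in capitals.
CXCL1: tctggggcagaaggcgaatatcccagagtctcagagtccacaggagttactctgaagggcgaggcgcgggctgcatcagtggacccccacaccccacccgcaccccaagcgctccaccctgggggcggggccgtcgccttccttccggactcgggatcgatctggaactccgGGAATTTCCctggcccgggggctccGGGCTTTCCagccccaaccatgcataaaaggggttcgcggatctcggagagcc
The 2 matches span bases -78 to -70 and -53 to -45 from the start. CXCL2 has 2 matches, at -77 to -69 and -53 to -45, and CXCL8 has 1 at -91 to -83 beside a match to TGANTCA, the AP-1 pattern, at -137 to -131. Of the 12 chemokines tested, 8 were matched to a promoter entry, and 7 of the 8 (87.5%) held GGNNNTTCC on either strand, against 17.1% of 27305 promoters and 19.8% of the 11854 tested genes with an entry. Among genes called higher by all 3 fits, 26.3% of 615 held it. The CXC genes are neighbours that arose by duplication and are not independent, and a match of letters is a description of the promoter and not a measured binding site.

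Most interleukins and colony-stimulating factors tested also rose. Of 20 listed, 14 were tested, 9 rose and none fell (median log2 fold change 1.19), where 5.97% and 5.4% of all genes did. All 3 fits called 8 of the 9, with CSF1 not called under GC offsets. Calls in the list were 9 higher and none lower without co-cultured replicate 3 (12.2% and 21.2% of all genes). With GC offsets they were 11 higher and none lower (10.4% and 18.3%). IL6, an inflammatory cytokine that signals through gp130, stood at 2.20, 1.69 and 1.58 CPM alone and 17.3, 18.4 and 15.6 CPM in co-culture (log2 fold change 3.22, edgeR adjusted p = 0.000107, SE 0.33). IL1B, whose precursor protein is cut by inflammasomes, stood at 1.23, 0.747 and 1.34 CPM alone and 13.5, 14.0 and 14.6 CPM in co-culture (log2 fold change 3.66, edgeR adjusted p = 5.94e-05, SE 0.34). Both were low alone and similar among the 3 co-cultured libraries. CSF2, which encodes GM-CSF, stood at 0.127, 0.249 and 0.0609 CPM alone and 6.34, 7.63 and 7.99 CPM in co-culture, with 3, 5 and 1 counts alone and 147, 256 and 214 in co-culture (log2 fold change 5.57, edgeR adjusted p = 1.33e-05, SE 0.42). CSF3, which encodes G-CSF and drives neutrophil production, had 0, 0 and 2 counts alone and 80, 130 and 110 counts in co-culture (edgeR adjusted p = 9.62e-05). These colony-stimulating factors were thus barely detected without co-culture. The factors that were already expressed alone changed less. IL11 went from 59.8, 69.1 and 72.0 CPM to 129.6, 148 and 113 CPM (log2 fold change 0.96, edgeR adjusted p = 0.0128, SE 0.21). LIF went from 108, 113 and 119 CPM to 183, 215 and 161 CPM (log2 fold change 0.72, edgeR adjusted p = 0.0156, SE 0.16), and CSF1 went from 79.5, 79.8 and 74.8 CPM to 129.5, 151 and 115 CPM (log2 fold change 0.76, edgeR adjusted p = 0.00634, SE 0.14). EBI3 (3.18, 3.83 and 4.14 CPM alone and 13.3, 13.6 and 9.63 CPM in co-culture) and IL32 (8.47, 12.6 and 15.2 CPM alone and 34.1, 38.6 and 24.3 CPM in co-culture) rose by 1.72 and 1.42 on the log2 scale (edgeR adjusted p = 0.00393 and 0.0095). IL18, a relative of IL1B made constitutively by epithelial cells, was at 58.1, 59.7 and 48.1 CPM alone and 59.1, 52.2 and 68.3 CPM in co-culture and was not called (edgeR adjusted p = 0.625). IL1A was at 0.508, 0.398 and 0.304 CPM alone and 1.08, 0.388 and 3.92 CPM in co-culture (edgeR adjusted p = 0.087).

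The CSF2 promoter is shown because the gene had the largest fitted fold change of the chemokines and cytokines with at least 5 CPM in co-culture, and its window holds GGNNNTTCC at -102 to -94 and at -85 to -77 (RefSeq, GRCh38.p14, chr5:132073539-132073788, plus strand, matches in capitals).
CSF2: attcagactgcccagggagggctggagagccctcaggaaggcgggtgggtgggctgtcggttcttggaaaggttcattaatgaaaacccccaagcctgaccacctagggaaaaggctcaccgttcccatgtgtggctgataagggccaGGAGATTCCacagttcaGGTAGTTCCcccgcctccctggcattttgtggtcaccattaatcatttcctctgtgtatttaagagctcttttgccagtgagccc
Of the 9 interleukins and colony-stimulating factors matched to an entry, 4 (44.4%) held GGNNNTTCC and 4 held TGANTCA. The latter was held by 6.6% of all promoters and 4.18% of those of genes tested. Of the 6 matched members that were called, 4 held GGNNNTTCC and 2 held TGANTCA. The IL6 entry has 1 GGNNNTTCC match, at -72 to -64.

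NF-kB is held inactive by inhibitor proteins, and once active it induces its own inhibitors and target genes. Of 20 tested members of the list of NF-kB subunits and feedback targets, 9 rose and none fell (5.97% and 5.4% of all genes). All 9 were called by the 3 fits. The median log2 fold change of the list was 0.60, or 0.26 with GC offsets. Without co-cultured replicate 3 the calls were 13 higher and 3 lower, where 12.2% and 21.2% of all genes were. With GC offsets they were 10 higher and 1 lower, where 10.4% and 18.3% of all genes were. The members that rose were mainly targets and inhibitors. NFKBIA, the inhibitor IkB-alpha, stood at 68.5, 81.3 and 78.4 CPM alone and 175, 199 and 150.0 CPM in co-culture (log2 fold change 1.201, edgeR adjusted p = 0.000304, SE 0.14). TNFAIP3, the deubiquitinase A20 that ends NF-kB signalling, stood at 21.2, 16.6 and 15.3 CPM alone and 81.1, 72.3 and 105 CPM in co-culture (log2 fold change 2.28, edgeR adjusted p = 9.45e-05, SE 0.23). Replicate 3 was the highest for TNFAIP3 and the lowest for NFKBIA, yet neither gene's groups overlapped. ZC3H12A, an RNase that degrades cytokine transcripts, went from 56.8, 56.1 and 55.7 CPM to 262, 314 and 204 CPM (log2 fold change 2.21, edgeR adjusted p = 4.25e-05, SE 0.20). SOD2, the mitochondrial superoxide dismutase, went from 125, 93.4 and 82.8 CPM to 538, 449.5 and 845 CPM (log2 fold change 2.61, edgeR adjusted p = 7.2e-05, SE 0.26). The adhesion molecule ICAM1 went from 1.61, 2.09 and 1.34 CPM to 14.2, 15.3 and 13.8 CPM (log2 fold change 3.09, edgeR adjusted p = 3.74e-05, SE 0.27). Exons of SOD2 overlap WTAP and those of ICAM1 overlap other annotated loci. Of the 5 subunits, RELB rose (51.6, 62.4 and 61.5 CPM alone and 103, 125 and 71.0 CPM in co-culture; log2 fold change 0.77, edgeR adjusted p = 0.0468, SE 0.23), while NFKB1, NFKB2, RELA and REL had edgeR adjusted p-values of 0.217, 0.0715, 0.432 and 0.114. RELA was at 96.2, 121 and 136 CPM alone and 139, 164 and 111 CPM in co-culture. Of the 18 list members matched to a promoter entry, 9 (50%) held GGNNNTTCC. How the pattern relates to the direction of change was not tested. It was held by 26.3% of genes called higher by all 3 fits, 20.1% of those called lower and 19.8% of those tested. Among lists, it was held by 6 of 10 genes of HLA class I and peptide loading (60%), whose median rose. It was also held by 4 of 8 YAP targets (50%), 14 of 36 DNA replication genes (38.9%) and 11 of 36 mitosis genes (30.6%). Those 3 lists had a median log2 fold change below 0, at -0.24, -0.06 and -1.03. Of the immediate-early genes, whose median rose, 2 of 17 (11.8%) held it.

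Secreted defence proteins of epithelia, named by their fold change and not from a list, were among the genes with the largest rise. SAA1, an acute-phase protein, stood at 0.931, 0.946 and 0.609 CPM alone and 14.3, 19.2 and 14.3 CPM in co-culture (log2 fold change 4.24, edgeR adjusted p = 1.38e-05, SE 0.33). It has a near-identical neighbour, SAA2, so its reads may have been split or lost. SLPI and PI3 encode inhibitors of neutrophil elastase and lie near each other on chromosome 20. SLPI stood at 1.19, 2.39 and 2.86 CPM alone and 33.5, 45.7 and 27.5 CPM in co-culture (log2 fold change 4.07, edgeR adjusted p = 2.37e-05, SE 0.33). PI3 stood at 1.99, 2.34 and 2.07 CPM alone and 28.8, 45.4 and 28.5 CPM in co-culture (log2 fold change 4.002, edgeR adjusted p = 5.94e-05, SE 0.38). LCN2, which binds bacterial iron carriers, stood at 14.1, 16.7 and 16.1 CPM alone and 189.6, 262 and 194 CPM in co-culture (log2 fold change 3.78, edgeR adjusted p = 4.86e-06, SE 0.26). Co-cultured replicate 2 was the highest of the 6 libraries for these 4 genes, and for none of them did the groups overlap. Immune cell markers were examined beside these results. Of 9 such markers, 4 had enough counts to be tested and 2 of them rose. CD14 was at 0.889, 0.797 and 0.913 CPM alone and 2.76, 4.23 and 2.76 CPM in co-culture (log2 fold change 1.91, edgeR adjusted p = 0.00563, SE 0.35). CD68 was at 0.931, 0.896 and 0.852 CPM alone and 2.80, 3.58 and 2.58 CPM in co-culture (log2 fold change 1.73, edgeR adjusted p = 0.00637, SE 0.33). CSF1R was at 0.212, 0.0996 and 0.669 CPM alone and 0.819, 0.805 and 0.709 CPM in co-culture, higher with no overlap but not called (edgeR adjusted p = 0.147). ITGAM was at 2.58, 3.24 and 3.29 CPM alone and 2.59, 2.59 and 2.28 CPM in co-culture (edgeR adjusted p = 0.454). LYZ had no count alone and 3, 5 and 2 counts in co-culture. The summed level of the 9 was 4.66 to 5.72 CPM alone and 8.43 to 11.4 CPM in co-culture. CD3E, a chain of the T cell receptor complex, had no count in any knockout library, and PTPRC, which encodes the leukocyte antigen CD45, had 1 count in 1 lone and in 1 co-cultured library. The part of other cell types in the remaining values was not tested.

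Immediate-early genes encode transcription factors that are induced within minutes of growth factor or stress signals. Of 23 members, all tested, 10 rose and none fell (median log2 fold change 0.68), where 5.97% and 5.4% of all genes did. All 10 were called by the 3 fits. The list had 12 higher and 1 lower without co-cultured replicate 3 (12.2% and 21.2% of all genes), and 11 higher and 2 lower with GC offsets (10.4% and 18.3%). EGR1 (ENSG00000120738; GRCh38 chromosome 5, 138465490 to 138469315, plus strand), a zinc finger factor, stood at 0.677, 0.797 and 1.10 CPM alone and 24.6, 18.9 and 19.2 CPM in co-culture (log2 fold change 4.62, edgeR adjusted p = 2.14e-07, SE 0.22). The gene was low in the lone libraries and higher in all co-cultured ones, and its mean in the libraries labelled control was 63.4 CPM alone and 53.9 CPM in co-culture. ATF3, a stress-induced repressor, stood at 9.06, 8.02 and 11.2 CPM alone and 53.5, 47.3 and 44.0 CPM in co-culture (log2 fold change 2.36, edgeR adjusted p = 5.7e-06, SE 0.17). FOSB, an AP-1 subunit, stood at 1.44, 1.89 and 1.58 CPM alone and 9.83, 9.04 and 8.28 CPM in co-culture (log2 fold change 2.46, edgeR adjusted p = 6.87e-05, SE 0.24). FOS stood at 0.889, 0.598 and 0.669 CPM alone and 3.41, 3.22 and 3.73 CPM in co-culture (log2 fold change 2.24, edgeR adjusted p = 0.000107, SE 0.23). The orphan nuclear receptor NR4A1 went from 4.23, 5.63 and 5.23 CPM to 17.4, 18.9 and 14.96 CPM (log2 fold change 1.77, edgeR adjusted p = 0.000193, SE 0.20). EGR2 had 0, 1 and 1 counts alone and 21, 12 and 19 in co-culture, and EGR4 had 2, 1 and 0 counts alone and 31, 46 and 22 in co-culture (edgeR adjusted p = 0.00924 and 0.000574). MAFF, IER2 and IER3 made up the rest of the 10, with log2 fold changes of 2.17, 0.68 and 1.31 (edgeR adjusted p = 0.000127, 0.0388 and 0.00136). The AP-1 subunits JUN and FOSL1 were not called. JUN was at 159, 144 and 152 CPM alone and 229, 224 and 185 CPM in co-culture (edgeR adjusted p = 0.0763), and FOSL1 had a log2 fold change of 0.11 (edgeR adjusted p = 0.68). MYC was at 175, 181 and 199 CPM alone and 156, 154 and 130.4 CPM in co-culture (edgeR adjusted p = 0.122), with all co-cultured libraries below the lone ones.

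The EGR1 promoter is shown because EGR1 had the highest log2 fold change of the immediate-early genes for which one is given.
Its window holds 2 CArG boxes, the site bound by serum response factor, at -105 to -96 and -83 to -74 (RefSeq, GRCh38.p14, chr5:138465229-138465478, plus strand, matches in capitals).
EGR1: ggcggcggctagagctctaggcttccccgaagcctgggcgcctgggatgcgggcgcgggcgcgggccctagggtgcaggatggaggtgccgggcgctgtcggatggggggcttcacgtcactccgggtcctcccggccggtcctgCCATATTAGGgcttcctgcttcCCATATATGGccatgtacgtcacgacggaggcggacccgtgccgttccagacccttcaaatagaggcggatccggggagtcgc
A CArG box was found in 1.14% of all promoters of this length and in 2 of the 17 immediate-early genes matched to an entry (11.8%).

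Feedback inhibitors of MAP kinase signalling were also examined. Of 16 phosphatase and Sprouty genes, 5 rose and none fell, where 5.97% and 5.4% of all genes did. All 3 fits called 4 of the 5. The median log2 fold change of the list was 0.50, or 0.29 with GC offsets. There were 7 higher and 2 lower without co-cultured replicate 3 (12.2% and 21.2% of all genes), and 6 higher and 1 lower with GC offsets (10.4% and 18.3%). DUSP6, the ERK phosphatase, stood at 5.97, 4.58 and 5.42 CPM alone and 15.5, 12.2 and 17.1 CPM in co-culture (log2 fold change 1.49, edgeR adjusted p = 0.000256, SE 0.17). DUSP5, a nuclear ERK phosphatase, stood at 76.5, 84.5 and 96.3 CPM alone and 180.0, 179.8 and 155 CPM in co-culture (log2 fold change 1.0004, edgeR adjusted p = 0.00115, SE 0.15). DUSP10, DUSP14 and DUSP8 rose by 0.99, 0.71 and 0.76 on the log2 scale (edgeR adjusted p = 0.0102, 0.00657 and 0.0395), of which DUSP8 was not called under GC offsets. The Sprouty genes SPRY1, SPRY2 and SPRY4 were not called (edgeR adjusted p = 0.0699, 0.721 and 0.0782). Of the 9 tested EGFR ligands and receptors of the ERBB family, 3 rose and 1 fell. This family had 2 higher and 3 lower without co-cultured replicate 3 (12.2% and 21.2% of all genes), and 3 higher and 2 lower with GC offsets (10.4% and 18.3%). The ligand AREG rose from 14.4, 13.4 and 14.2 CPM to 33.0, 27.1 and 33.8 CPM (log2 fold change 1.16, edgeR adjusted p = 0.000295, SE 0.14). HBEGF rose from 4.45, 4.33 and 3.77 CPM to 11.3, 9.66 and 10.6 CPM (log2 fold change 1.33, edgeR adjusted p = 0.00141, SE 0.20). TGFA rose from 62.2, 50.5 and 50.9 CPM to 79.1, 66.2 and 91.4 CPM (log2 fold change 0.53, edgeR adjusted p = 0.0438, SE 0.15), a call lost without co-cultured replicate 3 (edgeR adjusted p = 0.0579). Their receptor EGFR fell (310.3, 265 and 239 CPM alone and 87.7, 75.9 and 151 CPM in co-culture; log2 fold change -1.37, edgeR adjusted p = 0.00862, SE 0.27). Co-cultured replicate 3 was the closest to the lone libraries for EGFR, yet below each of them. The EGFR call was lost in 1 of 16 alternatives (edgeR adjusted p = 0.0582), the fit without co-cultured replicate 1. ERBB2 was at 123, 134 and 149.5 CPM alone and 143, 162 and 115 CPM in co-culture (edgeR adjusted p = 0.862).

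Among 19 tested genes of the matrix proteases and the plasminogen system, 4 rose and 1 fell, and these 5 were called by all 3 fits. In all there were 5 higher and 1 lower without co-cultured replicate 3 (12.2% and 21.2% of all genes), and 5 higher and 5 lower with GC offsets (10.4% and 18.3%). The median log2 fold change was 0.04, and it was -0.02 when libraries were scaled by their totals only and -0.07 with GC offsets. The genes that rose belong mainly to plasminogen activation. PLAU, the urokinase activator, stood at 179, 182 and 179 CPM alone and 479, 520.0 and 451 CPM in co-culture (log2 fold change 1.42, edgeR adjusted p = 3.13e-05, SE 0.12). Its receptor PLAUR stood at 53.5, 59.5 and 58.2 CPM alone and 131, 162 and 114 CPM in co-culture (log2 fold change 1.25, edgeR adjusted p = 0.000498, SE 0.16). PLAT, the tissue activator, stood at 5.25, 5.73 and 6.21 CPM alone and 15, 15.8 and 13.3 CPM in co-culture (log2 fold change 1.3599, edgeR adjusted p = 0.000332, SE 0.17). The matrix metalloproteinase MMP7 stood at 12.02, 12.8 and 12.1 CPM alone and 38.3, 35.3 and 37.4 CPM in co-culture (log2 fold change 1.59, edgeR adjusted p = 0.000107, SE 0.17). The groups were tight and separate for each of these genes. The inhibitor SERPINE2 fell from 817, 734 and 770.4 CPM to 377, 326 and 421 CPM (log2 fold change -1.05, edgeR adjusted p = 0.000563, SE 0.14). Of 8 genes of prostaglandin synthesis and reception, 3 rose and 1 fell (median 0.65), where 5.97% and 5.4% of all genes did. The calls were 4 higher and 2 lower without co-cultured replicate 3 (12.2% and 21.2% of all genes), and 3 higher and 1 lower with GC offsets (10.4% and 18.3%). PTGS2, the inducible cyclooxygenase, stood at 2.92, 2.39 and 2.01 CPM alone and 15.9, 15.8 and 39.0 CPM in co-culture (log2 fold change 3.26, edgeR adjusted p = 0.000349, SE 0.40), and replicate 3 stood well above the other co-cultured libraries. PTGES, the prostaglandin E synthase downstream of it, went from 329, 405 and 416 CPM to 796, 1015 and 664 CPM (log2 fold change 1.11, edgeR adjusted p = 0.00801, SE 0.22). Of the receptors for prostaglandin E, PTGER2 rose (log2 fold change 1.65, edgeR adjusted p = 0.0199) and PTGER4 fell (log2 fold change -1.01, edgeR adjusted p = 0.0322), both at low levels.

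The tumour suppressor p53, which is not mutated in A549, induces genes of cell cycle arrest, apoptosis and repair. Of 30 of its targets, 11 rose and none fell (median log2 fold change 0.43), where 5.97% and 5.4% of all genes did. The 11 were called by all 3 fits. In the list as a whole there were 14 higher and 6 lower without co-cultured replicate 3 (12.2% and 21.2% of all genes), and 14 higher and 2 lower with GC offsets (10.4% and 18.3%), so the share of targets called lower was close to that of all genes in the first of these fits and below it in the other. CDKN1A, the inhibitor p21, was abundant in both groups, at 957, 1153 and 1282 CPM alone and 2695, 2946 and 1916 CPM in co-culture (log2 fold change 1.16, edgeR adjusted p = 0.00366, SE 0.20). GDF15, a secreted stress cytokine that ATF4 also induces, stood at 87.3, 98.6 and 122 CPM alone and 547, 626 and 364 CPM in co-culture (log2 fold change 2.32, edgeR adjusted p = 0.00012, SE 0.24). The apoptosis gene BBC3 went from 37.1, 44.1 and 51.1 CPM to 133, 141 and 90.0 CPM (log2 fold change 1.46, edgeR adjusted p = 0.00166, SE 0.22). The stress sensor SESN2 went from 38.5, 40.0 and 49.4 CPM to 109, 116 and 78.9 CPM (log2 fold change 1.25, edgeR adjusted p = 0.00124, SE 0.18), and the antiproliferative BTG2 went from 47.7, 49.2 and 53.4 CPM to 119.5, 115 and 105 CPM (log2 fold change 1.18, edgeR adjusted p = 0.000354, SE 0.15). Co-cultured replicate 3 had the smallest rise of the 3 for each of these genes. MDM2, RRM2B and ZMAT3, also direct targets, had log2 fold changes of -0.77, -0.69 and -1.28 and were not called (edgeR adjusted p = 0.265, 0.36 and 0.0669). For MDM2, the values were 128, 99.1 and 86.3 CPM alone and 46.1, 25.2 and 112 CPM in co-culture, so replicate 3 overlapped the lone libraries and the other co-cultured libraries lay below them. Without replicate 3 the MDM2 log2 fold change was -1.55 (edgeR adjusted p = 0.00366).

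The factor ATF4 is translated when the kinases of the integrated stress response are active. Of 23 tested genes of ATF4 and the unfolded protein response, 7 rose and none fell, where 5.97% and 5.4% of all genes did. All 3 fits called 6 of the 7. The median log2 fold change of the list was 0.36, or 0.09 with GC offsets. The calls were 10 higher and 4 lower without co-cultured replicate 3 (12.2% and 21.2% of all genes), and 8 higher and 3 lower with GC offsets (10.4% and 18.3%). DDIT3, the pro-apoptotic factor CHOP, stood at 7.96, 7.47 and 5.36 CPM alone and 70.2, 60.9 and 62.7 CPM in co-culture (log2 fold change 3.22, edgeR adjusted p = 2.42e-06, SE 0.20). MARS and MBD6 share exonic sequence with DDIT3. TRIB3, a pseudokinase induced by CHOP, went from 62.1, 79.2 and 85.4 CPM to 226, 244 and 157 CPM (log2 fold change 1.47, edgeR adjusted p = 0.00132, SE 0.22). CHAC1 went from 5.67, 5.68 and 6.33 CPM to 13.5, 16.3 and 10.9 CPM (log2 fold change 1.201, edgeR adjusted p = 0.0043, SE 0.22). XBP1, the factor of the IRE1 branch, went from 43.4, 44.6 and 47.6 CPM to 97.8, 94.1 and 84.7 CPM (log2 fold change 1.03, edgeR adjusted p = 0.000266, SE 0.12). The amino acid genes that ATF4 drives were not called: ASNS was at 0.339, 1.05 and 0.730 CPM alone and 1.04, 0.775 and 1.19 CPM in co-culture (edgeR adjusted p = 0.375), and PSAT1 and PHGDH had log2 fold changes of -0.53 and -0.32 (edgeR adjusted p = 0.0655 and 0.314). The chaperone HSPA5 was at 466, 401 and 387 CPM alone and 492, 441 and 558 CPM in co-culture (edgeR adjusted p = 0.265).

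Of 25 tested interferon-response genes, 11 rose and none fell (median log2 fold change 0.48), where 5.97% and 5.4% of all genes did, and 9 were called by all 3 fits. Interferon-response calls were 11 higher and 5 lower without co-cultured replicate 3 (12.2% and 21.2% of all genes), and 10 higher and none lower with GC offsets (10.4% and 18.3%). OAS1, an RNA-sensing synthetase, stood at 23.8, 25.8 and 22.4 CPM alone and 58.6, 65.3 and 54.1 CPM in co-culture (log2 fold change 1.31, edgeR adjusted p = 0.000266, SE 0.15). Its relative OASL stood at 1.355, 2.04 and 2.13 CPM alone and 5.91, 6.59 and 4.40 CPM in co-culture (log2 fold change 1.62, edgeR adjusted p = 0.00202, SE 0.26). IFI6 stood at 11.1, 19.3 and 16.4 CPM alone and 53.6, 63.7 and 35.1 CPM in co-culture (log2 fold change 1.71, edgeR adjusted p = 0.00216, SE 0.27), with replicate 3 the lowest of the co-cultured libraries. The transcription factors IRF1 and IRF7 rose by 0.95 and 1.09 on the log2 scale (edgeR adjusted p = 0.00351 and 0.0133). IFIT2 and IFIT3 were not called (edgeR adjusted p = 0.828 and 0.539). Another 7 listed genes, among them MX2, OAS2 and RSAD2, had too few counts to be tested. Of 13 genes of HLA class I and peptide loading, 4 rose and none fell (median 0.61, or 0.30 with GC offsets). The calls were 11 higher and none lower without co-cultured replicate 3 (12.2% and 21.2% of all genes), and 6 higher and none lower with GC offsets (10.4% and 18.3%). B2M, the common light chain of class I molecules, stood at 216, 222 and 211 CPM alone and 509.6, 499 and 478 CPM in co-culture (log2 fold change 1.197, edgeR adjusted p = 0.000199, SE 0.14). HLA-B went from 52.0, 54.7 and 64.1 CPM to 119, 133 and 83.4 CPM (log2 fold change 0.97, edgeR adjusted p = 0.00896, SE 0.19). The class I heavy chain genes are near copies of each other, and reads may have been assigned to the wrong one.

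Most genes of mitosis fell, whereas the series text states that proliferation of the knockout cells recovered in co-culture. How these RNA levels relate to growth was not tested. Of 42 members, all tested, 27 fell and none rose, where 5.4% of all genes tested fell, and the median log2 fold change was -1.03. All 27 were called by each of the 3 fits, which called 5.05% of all genes lower. The groups did not overlap, with co-culture lower, for 32 of the 42, and for 14.9% of all genes. Without co-cultured replicate 3, 35 fell and none rose, and with GC offsets 34 fell and MAD2L1, a checkpoint protein of the spindle, rose, where 21.2% and 18.3% of all genes fell. The median transcript GC content of the list, 42.4%, was below the 49.7% of all genes tested. MKI67 (ENSG00000148773; GRCh38 chromosome 10, 128096659 to 128126385, minus strand), which encodes the proliferation antigen Ki-67, stood at 162, 147 and 141 CPM alone and 38.9, 33.3 and 59.3 CPM in co-culture (log2 fold change -1.78, edgeR adjusted p = 0.000484, SE 0.23). CCNB1, the mitotic cyclin, stood at 154, 169.8 and 172 CPM alone and 79.7, 78.0 and 86.2 CPM in co-culture (log2 fold change -1.02, edgeR adjusted p = 0.00098, SE 0.15). For both genes the co-cultured libraries were all below the lone ones, and replicate 3 was the closest to them. CDC20, the activator of the anaphase-promoting complex, went from 179, 237 and 269 CPM to 96.4, 109 and 76.2 CPM (log2 fold change -1.28, edgeR adjusted p = 0.00187, SE 0.20). The kinase PLK1 went from 142, 177 and 203 CPM to 92.1, 109 and 70.1 CPM (log2 fold change -0.94, edgeR adjusted p = 0.0107, SE 0.20). For these, replicate 3 was the lowest of the co-cultured libraries. The kinesin KIF20A went from 49.9, 50.5 and 45.2 CPM to 24.0, 22.9 and 27.5 CPM (log2 fold change -0.97, edgeR adjusted p = 0.00159, SE 0.15). CENPF, a kinetochore protein, went from 27.8, 25.1 and 27.6 CPM to 4.05, 2.27 and 7.76 CPM (log2 fold change -2.52, edgeR adjusted p = 0.00303, SE 0.42). FOXM1, the factor that drives this wave of genes, fell by 0.56 on the log2 scale (edgeR adjusted p = 0.0258). CDK1 (18.4, 22.0 and 23.6 CPM alone and 25.4, 13.5 and 31.6 CPM in co-culture; edgeR adjusted p = 0.788) and BIRC5 (143, 179 and 203 CPM alone and 138, 144 and 106 CPM in co-culture; edgeR adjusted p = 0.129) were not called, and their groups overlapped.

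The MKI67 promoter is shown because 61.1% of the 36 mitosis genes matched to an entry held TTTGAA, the core of the cell cycle homology region, and 72.2% held CCAAT, on either strand. The capitals mark both patterns in the sequence (RefSeq, GRCh38.p14, chr10:128126424-128126673, minus strand).
MKI67: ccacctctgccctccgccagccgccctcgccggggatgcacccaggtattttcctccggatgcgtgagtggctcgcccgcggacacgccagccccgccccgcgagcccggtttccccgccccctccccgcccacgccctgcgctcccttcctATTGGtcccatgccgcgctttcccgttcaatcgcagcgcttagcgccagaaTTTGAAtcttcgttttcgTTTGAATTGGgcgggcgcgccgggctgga
TTTGAA stands at -47 to -42 and -29 to -24. CCAAT stands on the other strand at -98 to -94 and -24 to -20, the last sharing 1 base with the other motif. Of all promoters of this length 13.6% held the first motif and 33% the second, and of those of genes tested 8.27% and 34.6%. Of the 36 DNA replication genes matched to an entry, none held the first motif and 61.1% the second. The windows of the mitosis genes CCNB1, KIF20A and CENPF held CCAAT but no TTTGAA.

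The genes of DNA replication, which peak earlier in the cell cycle, had a median close to that of all genes tested. Of 42 tested, 2 rose and 5 fell (median log2 fold change -0.06), where 5.97% and 5.4% of all genes did. All 3 fits called 1 higher and 5 lower. DNA replication genes had 2 higher and 11 lower without co-cultured replicate 3 (12.2% and 21.2% of all genes), and 4 higher and 19 lower with GC offsets (10.4% and 18.3%). The share called lower was near that of all genes in the first of these fits and above it with GC offsets. ORC1, a subunit of the origin recognition complex, stood at 19.9, 21.7 and 21.8 CPM alone and 10.8, 9.63 and 11.6 CPM in co-culture (log2 fold change -0.98, edgeR adjusted p = 0.00175, SE 0.15). CCNE1, the cyclin that starts S phase, rose instead, from 33.0, 30.0 and 38.5 CPM to 52.9, 52.4 and 50.4 CPM (log2 fold change 0.62, edgeR adjusted p = 0.013, SE 0.13). UHRF1, which maintains DNA methylation at forks, fell from 83.3, 79.9 and 83.5 CPM to 60.6, 58.0 and 47.1 CPM (log2 fold change -0.57, edgeR adjusted p = 0.0166, SE 0.13), and the helicase subunit MCM6 fell from 73.7, 63.4 and 49.5 CPM to 28.97, 22.6 and 44.0 CPM (log2 fold change -0.97, edgeR adjusted p = 0.0252, SE 0.24). The sliding clamp PCNA (226, 219 and 215 CPM alone and 277, 222 and 303 CPM in co-culture; edgeR adjusted p = 0.258) and the helicase subunit MCM2 (92.8, 127 and 133 CPM alone and 102, 115 and 75.8 CPM in co-culture; edgeR adjusted p = 0.407) were not called. Of 26 genes of thymidylate, dNTP and nucleoside metabolism other than TYMS, none rose and 1 fell (median 0.07, or -0.03 with GC offsets). Their counts were 1 higher and 3 lower without co-cultured replicate 3 (12.2% and 21.2% of all genes), and 3 higher and 5 lower with GC offsets (10.4% and 18.3%). That gene was ABCC4, a nucleotide exporter, at 49.9, 35.2 and 32.4 CPM alone and 9.79, 7.52 and 20.4 CPM in co-culture (log2 fold change -1.64, edgeR adjusted p = 0.012, SE 0.35). The salvage kinase TK1 was at 139, 204 and 236 CPM alone and 247, 286 and 172 CPM in co-culture (edgeR adjusted p = 0.455). The ribonucleotide reductase subunit RRM2 was at 176, 164 and 163 CPM alone and 205, 182 and 230.1 CPM in co-culture (edgeR adjusted p = 0.181). The calls of UHRF1, CCNE1 and ABCC4 were not stable. That of UHRF1 was lost in 6 of 16 alternatives (edgeR adjusted p = 0.0539 to 0.151), among them leaving out lone replicates 1 and 2, 1 at a time. CCNE1 lost its call in 5 of 16 alternatives (edgeR adjusted p = 0.0543 to 0.0757), among them leaving out lone replicates 1 and 2 or co-cultured replicate 1, 1 at a time. ABCC4 lost its call in 3 of 16 alternatives (edgeR adjusted p = 0.0592 to 0.0744), among them leaving out lone replicate 1 or co-cultured replicate 1, 1 at a time. For TK1, RRM2, PCNA and MCM2, with a p above the threshold, a change is not shown, and equality is not shown either.

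Regulators of the G1 phase moved in both directions, 3 higher and 3 lower of 12 tested (5.97% and 5.4% of all genes). These 6 were called by all 3 fits. In total there were 3 higher and 5 lower without co-cultured replicate 3 (12.2% and 21.2% of all genes), and 3 higher and 6 lower with GC offsets (10.4% and 18.3%). CDK6, the partner of D cyclins, stood at 59.5, 45.3 and 42.0 CPM alone and 11.8, 6.50 and 23.0 CPM in co-culture (log2 fold change -1.83, edgeR adjusted p = 0.0108, SE 0.38), with replicate 2 the lowest and replicate 3 the highest of the co-cultured libraries. CDKN1B, the inhibitor p27, stood at 21.9, 18.3 and 22.0 CPM alone and 37.9, 27.8 and 37.0 CPM in co-culture (log2 fold change 0.72, edgeR adjusted p = 0.0112, SE 0.15). CDK2 stood at 34.8, 35.4 and 32.1 CPM alone and 51.7, 47.6 and 51.8 CPM in co-culture (log2 fold change 0.56, edgeR adjusted p = 0.00755, SE 0.11). RBL1 and RBL2, the relatives of the retinoblastoma protein, fell by 1.68 and 1.13 on the log2 scale (edgeR adjusted p = 0.0479 and 0.0269), while CCND1 had a log2 fold change of -0.42 (edgeR adjusted p = 0.0538). The CDK6 call was lost in 3 of 16 alternatives (edgeR adjusted p = 0.0501 to 0.0672), among them leaving out lone replicate 1 or co-cultured replicate 1, 1 at a time. CDKN1B lost its call in 4 of 16 alternatives (edgeR adjusted p = 0.0623 to 0.073), among them leaving out lone replicate 2 or co-cultured replicate 1, 1 at a time.

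Genes of the extracellular matrix and of mesenchymal cells were another group with several members lower. Of 25 tested matrix proteins, 4 rose and 6 fell (median log2 fold change -0.27, or -0.52 with GC offsets). In the full fit 5.97% of all genes rose and 5.4% fell. These 10 matrix genes were called by all 3 fits. Matrix protein calls were 6 higher and 8 lower without co-cultured replicate 3 (12.2% and 21.2% of all genes), and 4 higher and 9 lower with GC offsets (10.4% and 18.3%). LAMB3, a laminin chain of epithelial basement membranes, rose from 15.8, 16.7 and 20.1 CPM to 70.5, 82.5 and 61.1 CPM (log2 fold change 2.03, edgeR adjusted p = 2.4e-05, SE 0.17). Tenascin TNC rose from 27.1, 23.9 and 23.3 CPM to 64.6, 61.1 and 59.4 CPM (log2 fold change 1.32, edgeR adjusted p = 0.00242, SE 0.21). COL17A1, a hemidesmosome collagen, rose from 1.82, 1.59 and 1.70 CPM to 4.96, 5.04 and 3.84 CPM (log2 fold change 1.43, edgeR adjusted p = 0.00187, SE 0.22). The fibrillin FBN1 fell from 89.4, 72.8 and 63.0 CPM to 22.9, 20.1 and 35.9 CPM (log2 fold change -1.51, edgeR adjusted p = 0.00277, SE 0.25). Thrombospondin THBS1 fell from 136, 117 and 111 CPM to 47.3, 42.9 and 71.8 CPM (log2 fold change -1.17, edgeR adjusted p = 0.0041, SE 0.21). FBN2, COL4A1, LAMA3 and LAMB1 fell by 1.33, 0.97, 1.03 and 0.90 on the log2 scale (edgeR adjusted p = 0.00951, 0.00412, 0.0206 and 0.024). COL5A3, a chain of type V collagen, had 0, 1 and 4 counts alone and 166, 190 and 128 in co-culture (edgeR adjusted p = 7.57e-05), and its fitted fold change depends on the prior count. Of 12 genes of the epithelial to mesenchymal switch, 2 fell, where 5.4% of all genes fell, and 1 of the 2 was called by all 3 fits. Without co-cultured replicate 3 the calls were none higher and 4 lower (12.2% and 21.2% of all genes). With GC offsets they were none higher and 3 lower (10.4% and 18.3%). N-cadherin, CDH2, was at 89.3, 77.0 and 75.3 CPM alone and 38.3, 29.5 and 56.0 CPM in co-culture (log2 fold change -0.97, edgeR adjusted p = 0.0271, SE 0.24). Vimentin, VIM, was at 1074, 1201 and 1202 CPM alone and 891, 880.4 and 863 CPM in co-culture (log2 fold change -0.40, edgeR adjusted p = 0.0455, SE 0.12). The VIM call was lost in 11 of 16 alternatives (edgeR adjusted p = 0.0553 to 0.528), among them leaving out any 1 of the 6 knockout libraries, and the CDH2 call in 8 of 16 alternatives (edgeR adjusted p = 0.0537 to 0.126), among them leaving out lone replicates 1, 2 and 3 or co-cultured replicates 1 and 2, 1 at a time. E-cadherin, CDH1, was at 19.0, 18.4 and 15.1 CPM alone and 21.9, 21.8 and 28.1 CPM in co-culture (edgeR adjusted p = 0.126). The summed level of 8 fibroblast markers was 29.7 to 34.5 CPM alone and 22.1 to 29.3 CPM in co-culture. Of these COL1A1 fell (log2 fold change -0.64, edgeR adjusted p = 0.0419), THY1 was at 7.37, 9.66 and 9.86 CPM alone and 12.1, 12.5 and 9.03 CPM in co-culture (edgeR adjusted p = 0.488), and DCN had no count alone and 1, 1 and 0 counts in co-culture. The part of other cell types in the matrix result was not tested.

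Among 12 targets and partners of YAP, which senses cell density and tension, 4 fell and none rose (median log2 fold change -0.24). In the full fit 5.4% of all genes fell and 5.97% rose. All 3 fits called 3 of the 4 lower. YAP target calls were none higher and 4 lower without co-cultured replicate 3 (12.2% and 21.2% of all genes), and 1 higher and 7 lower with GC offsets (10.4% and 18.3%). TEAD1, the DNA-binding partner of YAP, stood at 119, 94.4 and 79.9 CPM alone and 18.1, 11.96 and 43.5 CPM in co-culture (log2 fold change -1.999, edgeR adjusted p = 0.0149, SE 0.44). The target CCN2 fell from 125, 122 and 113 CPM to 78.3, 80.5 and 86.3 CPM (log2 fold change -0.55, edgeR adjusted p = 0.0212, SE 0.13). The receptor kinase AXL fell from 486, 515 and 525 CPM to 387, 378 and 341 CPM (log2 fold change -0.47, edgeR adjusted p = 0.0395, SE 0.13). CRIM1 fell by 0.98 on the log2 scale (edgeR adjusted p = 0.0397). The AXL call was lost in 12 of 16 alternatives (edgeR adjusted p = 0.0511 to 0.361), among them leaving out any 1 of the 6 knockout libraries. CCN2 lost its call in 5 of 16 alternatives (edgeR adjusted p = 0.0689 to 0.184), among them leaving out lone replicates 1 and 2 or co-cultured replicates 1 and 2, 1 at a time. TEAD1 lost its call in 3 of 16 alternatives (edgeR adjusted p = 0.0601 to 0.0859), among them leaving out lone replicate 1 or co-cultured replicate 1, 1 at a time. CCN1, often taken with CCN2 as a readout of YAP, was at 149, 150.1 and 158 CPM alone and 187, 194 and 167 CPM in co-culture (edgeR adjusted p = 0.158). Of 14 tested genes of the TGF-beta, activin and BMP families and their ID targets, 1 rose and 1 fell, where 5.97% and 5.4% of all genes did. They had 2 higher and 2 lower without co-cultured replicate 3 (12.2% and 21.2% of all genes), and 2 higher and 5 lower with GC offsets (10.4% and 18.3%). The ligand BMP2 rose from 1.74, 1.54 and 1.77 CPM to 4.36, 3.91 and 5.15 CPM (log2 fold change 1.41, edgeR adjusted p = 0.00868, SE 0.28). The ID2 repressor fell from 36.5, 31.6 and 33.3 CPM to 20.4, 18.9 and 20.3 CPM (log2 fold change -0.77, edgeR adjusted p = 0.0106, SE 0.16), a call lost in 2 of 16 alternatives (edgeR adjusted p = 0.0506 to 0.0545), namely leaving out lone replicate 1 or co-cultured replicate 1, 1 at a time.

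The genes with the lowest fold change outside these lists included the sialyltransferase ST6GAL2, which went from 11.4, 11.1 and 9.98 CPM to 1.47, 0.835 and 2.43 CPM (log2 fold change -2.79, edgeR adjusted p = 0.00386, SE 0.48). ITGA11, a collagen-binding integrin subunit, stood at 46.3, 49.0 and 50.6 CPM alone and 11.9, 11.8 and 10.4 CPM in co-culture (log2 fold change -2.09, edgeR adjusted p = 0.000359, SE 0.26). Its co-cultured libraries were close to each other, replicate 3 being the lowest. The imprinted retrotransposon-derived gene PEG10 went from 167, 139 and 129 CPM to 27.5, 20.99 and 56.6 CPM (log2 fold change -2.05, edgeR adjusted p = 0.00666, SE 0.39). UTP20, a factor of ribosome assembly, went from 32.4, 26.3 and 25.7 CPM to 5.35, 3.996 and 11.8 CPM (log2 fold change -2.003, edgeR adjusted p = 0.00634, SE 0.38). NHS, ARHGAP11A and UACA fell by 2.05, 2.04 and 2.01 on the log2 scale (edgeR adjusted p = 0.00898, 0.0259 and 0.027). Without co-cultured replicate 3, the falls of ARHGAP11A, UTP20, CDK6 and TEAD1 were larger by over 1.5 times, at log2 fold changes of -2.78, -2.60, -2.42 and -2.70. The ARHGAP11A call was lost in 6 of 16 alternatives (edgeR adjusted p = 0.0647 to 0.126), among them leaving out lone replicates 1 and 2 or co-cultured replicates 1 and 2, 1 at a time. UACA lost its call in 5 of 16 alternatives (edgeR adjusted p = 0.064 to 0.126), among them leaving out lone replicates 1 and 2 or co-cultured replicates 1 and 2, 1 at a time, and NHS in 1 of 16 alternatives (edgeR adjusted p = 0.0593), the fit without co-cultured replicate 1. For PEG10, UTP20, ST6GAL2, NHS, ARHGAP11A and UACA, replicate 2 was the lowest and replicate 3 the highest of the co-cultured libraries.

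**Figure D3:**
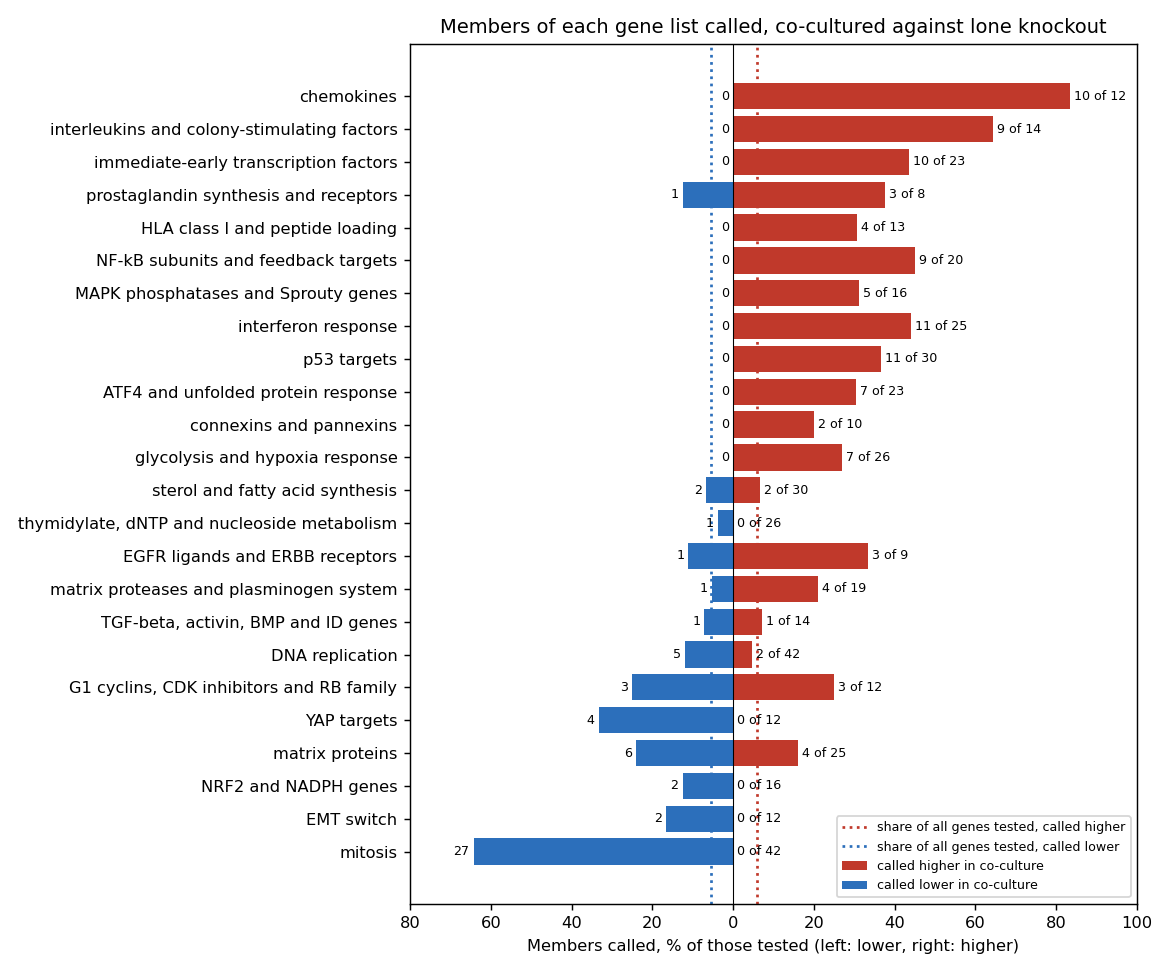
Share of tested members called higher (red bars to the right) or lower (blue bars to the left) in co-cultured against lone knockout, in percent, for 24 gene lists ordered by their median log2 fold change, with numbers of genes beside the bars. Dotted lines mark the shares among all 16768 genes tested, 5.97% higher and 5.4% lower; chemokines (10 of 12) and mitosis (27 of 42) lie at the ends.

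Some named genes share annotated exons with a neighbour, which leaves their reads uncertain where counting ignored strand. These include IL6 (with STEAP1B), EGFR (with EGFR-AS1), KIF20A (with BRD8 and CDC23), CDK2 (with PMEL), PEG10 (with SGCE) and HLA-B (with HLA-C).

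The direction of these groups was also seen library by library. The median log2 difference of the tested chemokines from the lone mean was 2.20, 2.69 and 2.80 in co-cultured replicates 1 to 3, and that of the interleukins and colony-stimulating factors was 1.10, 1.05 and 1.07. For these lists replicate 3 did not stand apart. For mitosis it was -1.16, -2.10 and -0.82, so that all co-cultured libraries were lower but replicate 2 by far the most. For NF-kB subunits and feedback targets it was 0.71, 0.84 and 0.29.

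**Figure D4:**
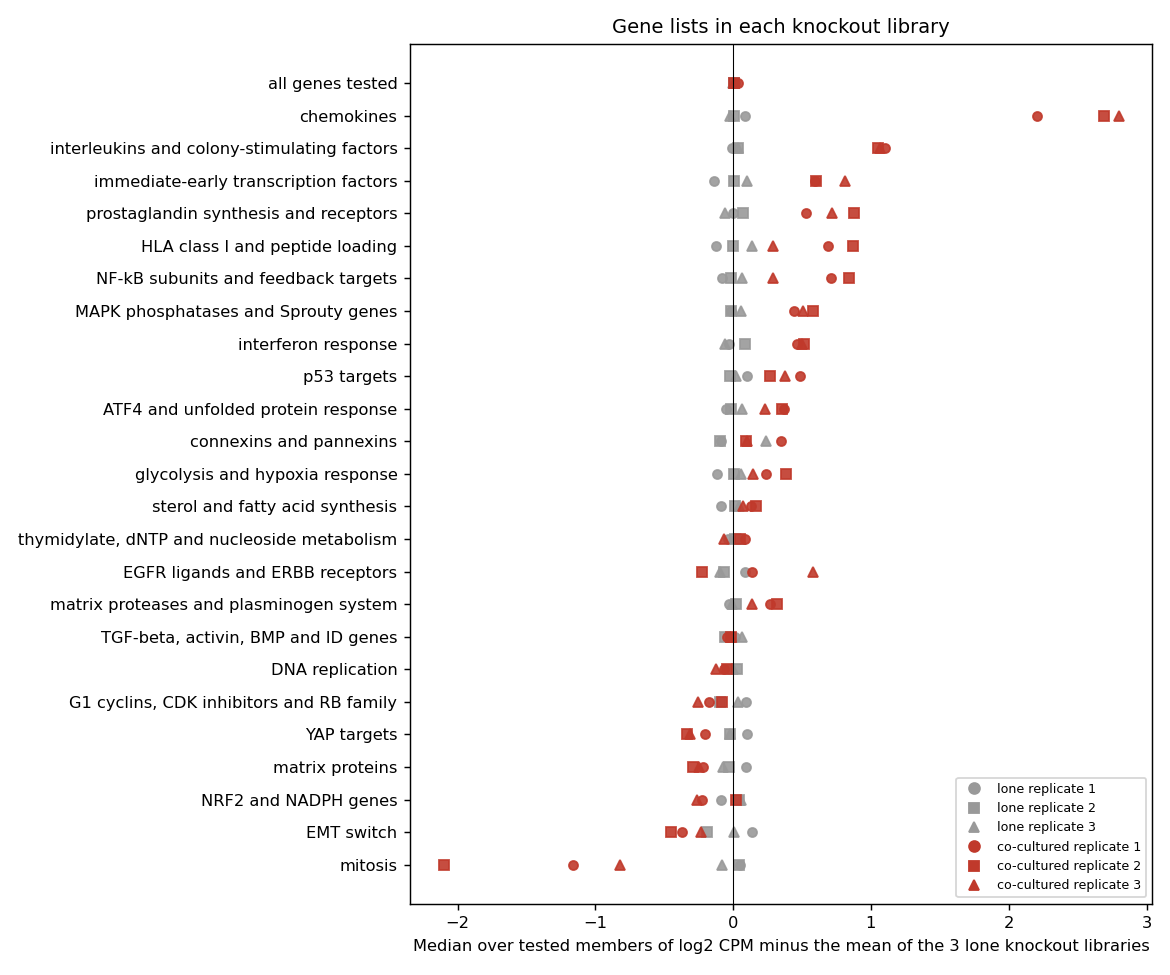
Median over the tested members of each list of the log2 CPM in 1 library minus the mean of the 3 lone knockout libraries (horizontal axis), for lone (grey) and co-cultured (red) libraries, with symbols for replicates. Chemokines lie at 2.20 to 2.80 and mitosis at -2.10 to -0.82 in the co-cultured libraries, while the lone ones lie near 0.

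Whether the co-culture difference of the knockout exceeded that of the libraries labelled control was tested as an interaction over all 12 libraries. It was called higher for 253 genes (1.51%) and lower for 48 (0.286%), together 1.8%. Without co-cultured knockout replicate 3 it was called higher for 1201 (7.05%) and lower for 2422 (14.2%), together 21.3%. Between lone and co-cultured libraries labelled control no gene was called by edgeR (540 at an unadjusted p under 0.05) or by DESeq2 (504 at an unadjusted p under 0.05). Both tests use the libraries whose expression goes against their label, and the interaction shares the knockout libraries with the comparison above, so it is not independent of it. The interaction was called higher for 8 of 12 chemokines, 6 of 14 interleukins and colony-stimulating factors, 7 of 20 NF-kB genes and 9 of 23 immediate-early genes, and lower for 7 of 42 mitosis genes. Leaving out 1 library at a time moved the number of genes called for the interaction to between 119, without co-cultured replicate 2 labelled control, and 3623, without co-cultured knockout replicate 3. The median co-culture change in the libraries labelled control was 0.14 for chemokines and -0.08 for mitosis genes. CXCL8, for example, had means of 54.9 and 69.9 CPM in lone and co-cultured libraries labelled control, and an interaction of 3.62 (SE 0.30, edgeR adjusted p = 6.68e-05). MKI67 had means of 134 and 104 CPM there, and an interaction of -1.41 (SE 0.32, edgeR adjusted p = 0.0419). For CENPF the interaction was -1.65 (SE 0.57, edgeR adjusted p = 0.173), so a difference between the 2 co-culture effects was not shown for it.

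**Figure D5:**
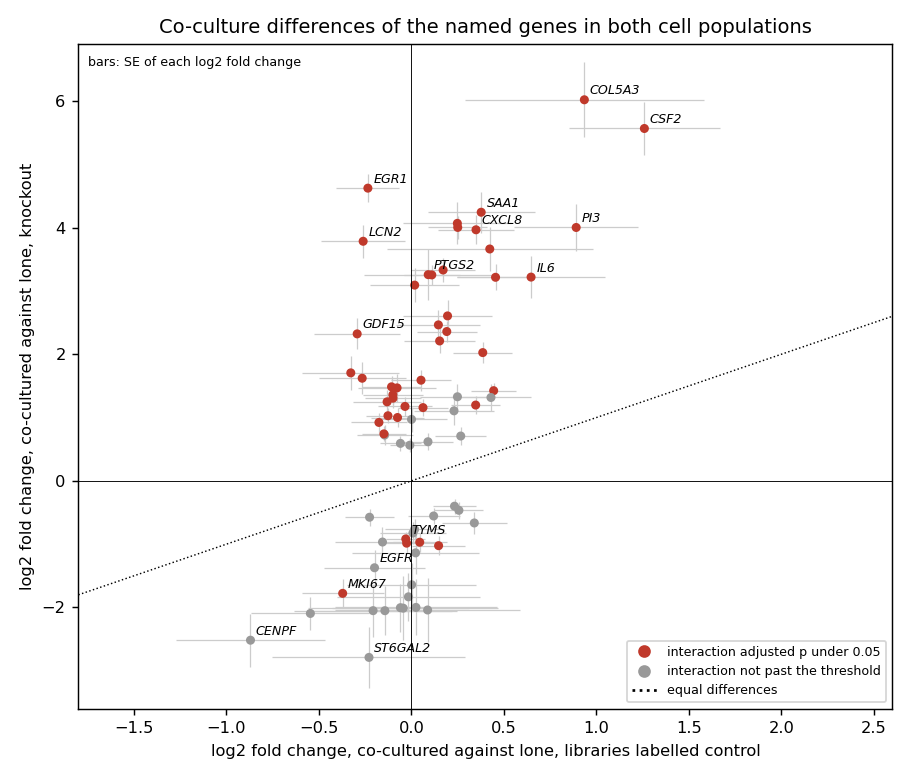
Log2 fold change of co-culture in the knockout (vertical axis) against that in the libraries labelled control (horizontal axis) for the named genes, with SE bars; red points passed the interaction test (adjusted p under 0.05) and grey points did not. The dotted line marks equal differences; the axes have different scales, and the vertical positions run from -2.79 for ST6GAL2 to 6.02 for COL5A3.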

How the data were processed

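RNA of 12 libraries labelled A549 was sequenced, 6 of them TYMS knockout. The other 6 express genes that A549 is known to lack. The authors deposited 1 table of raw counts for 61541 Ensembl genes. Per the submitters' processing notes, FastQC, STAR 2.7.9a, featureCounts, R 4.2.1, DESeq2 1.36.0 and GRCh38 were used. Annotation release and strand setting are not given in the sources used here.

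Counts were used as deposited, in edgeR 4.0.16 (R 4.3.3): filterByExpr on 4 groups, TMM scaling, all 12 libraries in 1 model of group means (8 residual degrees of freedom), robust quasi-likelihood F-test, Benjamini-Hochberg adjustment over all genes tested. The SE is the size of the log2 fold change divided by the root of F. Nothing says that replicates were separate cultures, so p-values measure the spread between these libraries, which may be technical. Within each group the libraries differed in their counts (chi-square per gene 8.02 to 127), so none was a copy of another. Whether they were separate preparations of the same RNA was not tested. GC offsets were splines with 6 degrees of freedom on transcript GC. Positions and GC came from GENCODE 29 on GRCh38, which held 58366 of the genes, and 42045 had a symbol. Promoters are RefSeq windows on GRCh38.p14, with motif positions counted from the RefSeq start. For EGR1 and MKI67, a stretch just after that start was not found in the GENCODE 29 transcripts of the gene.

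Genes named are TYMS, the marker genes, the 8 highest and 8 lowest fold changes called in all 3 fits at 10 CPM or more in the higher group with no overlap, and in each list the 3 called members with the smallest p at 5 CPM or more. Further list members were named after their values were seen. Some genes are not reported here. Members, lists and tests were chosen with earlier results of these data known. The fit was tested on simulated data in which 200 genes were changed. It called 85.9% of the 4-fold and 34.0% of the 2-fold changes, and 11 of its 129 calls were false. A 2-fold change can thus go uncalled. The simulated counts had no GC trend like that of the real libraries, so these figures may not carry over to them. Replicates left out, other scalings, filters, DESeq2 1.42.0, a replicate block, 2 groups only and GC offsets were tried. Whether the replicate numbers pair the libraries could not be told from their deviations, which carry the GC trend of each library.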

Additional observations from a re-analysis of the deposited data

Results flagged for a closer look

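For 43 of 73 named genes, markers not counted, the co-culture difference in the knockout differed from that in the libraries labelled control. The interaction test used all 12 libraries and an edgeR adjusted p under 0.05, and it called 1.8% of all genes tested. All named genes but TYMS were picked by their difference between co-cultured and lone knockout libraries. The interaction uses those same libraries, so the number 43 is no separate support. Each value in parentheses is the interaction on the log2 scale, the knockout difference minus that of the libraries labelled control, and positive values mean a larger rise in the knockout. These libraries go against their cell line label, and the part of that in the interaction was not tested.

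Chemokines and cytokines were CXCL1 (3.75), CXCL2 (3.16), CXCL3 (3.14), CXCL8 (3.62), CSF2 (4.31), IL1B (3.24) and IL6 (2.57). NF-kB targets were ICAM1 (3.07), ZC3H12A (2.06) and SOD2 (2.41). Secreted defence proteins were SAA1 (3.87), SLPI (3.82), PI3 (3.11) and LCN2 (4.04). Immediate-early and MAPK feedback genes were EGR1 (4.86), ATF3 (2.17), FOSB (2.32), DUSP6 (1.59) and DUSP5 (1.08), with the EGFR ligand AREG (1.09).

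Protease and prostaglandin genes were PLAU (0.98), MMP7 (1.54), PLAT (1.46) and PTGS2 (3.17). Stress genes were GDF15 (2.61), BTG2 (1.21), SESN2 (1.38), DDIT3 (2.76), XBP1 (1.15) and TRIB3 (1.55). Interferon-response and class I genes were OAS1 (1.41), OASL (1.89), IFI6 (2.03) and B2M (0.85). The vasodilator peptide ADM had 0.89, the enolase ENO2 1.10, and the matrix genes LAMB3 1.64 and COL5A3 5.08. COL5A3 had at most 4 counts in each lone knockout library, so its value depends on the prior count.

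The interaction was negative for MKI67 (-1.41), CCNB1 (-1.17), KIF20A (-1.01), ORC1 (-0.96) and TYMS (-0.89).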

How the results depend on the processing

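The number of genes called between co-cultured and lone knockout, 1907, was 3347 with DESeq2, 664 with the 2 groups alone, 3340 without a filter on low counts, 4739 with GC offsets, 1059 where 2-fold was required in addition, and 6419 with GC offsets and no co-cultured replicate 3, an alternative chosen after seeing the data. With a replicate block it was 1080, or 4013 with GC offsets as well. Leaving out 1 knockout library at a time gave 536 to 5680. It was 1420 by library totals, 2169 by RLE and 2161 with a minimum of 1 CPM. Of the 1907, 1711 were shared with the GC offsets and 1865 with the fit without co-cultured replicate 3. The number for the interaction, 301, was 877 with DESeq2, 1342 without a filter, 1231 with GC offsets, 3800 with GC offsets and no co-cultured knockout replicate 3, 179 with a replicate block and 700 with both, and 119 to 3623 with 1 library left out. The share of calls that were higher was 71.5% with 2 groups and 60.6% with the replicate block. The cause was not tested. Same-numbered lone and co-cultured libraries had correlated deviations of -0.25, 0.079 and -0.54. These deviations carry the GC trend of each library, so they cannot show whether same-numbered libraries belong together. TYMS kept its direction and its call under every alternative run (log2 -1.06 to -0.79), and none of the 72 other called genes of the naming rule reversed. Of these, 2 lost their call with GC offsets, 2 without co-cultured replicate 3, 5 with the block, 14 with 2 groups, and at most 17 with 1 library left out (co-cultured replicate 1). Genes under about 1 CPM rest on few counts.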

Other observations

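The remaining gene lists were described by the same fit. Of 26 genes of glycolysis and the hypoxia response, 7 rose and none fell (median log2 fold change 0.19, against 0.01 over all genes tested), and 3 of the 7 were called by all 3 fits. Counts were 9 higher and 1 lower without co-cultured replicate 3 (12.2% and 21.2% of all genes), and 4 higher and 3 lower with GC offsets (10.4% and 18.3%), where the full fit called 5.97% of all genes higher and 5.4% lower. ENO2, the gamma enolase, stood at 81.5, 92.5 and 90.8 CPM alone and 169.9, 186 and 146 CPM in co-culture (log2 fold change 0.92, edgeR adjusted p = 0.00294, SE 0.15). PGK1, which makes ATP in glycolysis, stood at 732, 871 and 837 CPM alone and 1252, 1476 and 1120.0 CPM in co-culture (log2 fold change 0.66, edgeR adjusted p = 0.0294, SE 0.17). The lactate exporter SLC16A3 went from 123, 142 and 164 CPM to 289, 337 and 207 CPM (log2 fold change 0.96, edgeR adjusted p = 0.0216, SE 0.23). ADM and VEGFA, targets of the hypoxia-inducible factors, rose by 0.74 and 0.59 on the log2 scale (edgeR adjusted p = 0.00208 and 0.00634), calls that GC offsets ended (edgeR adjusted p = 0.0688 and 0.11). LDHA, another glycolytic gene, was at 996, 1046 and 892 CPM alone and 985, 951 and 1133 CPM in co-culture (edgeR adjusted p = 0.781).

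Of 30 genes of sterol and fatty acid synthesis and uptake, 2 rose and 2 fell, shares close to those of all genes, and the 4 were called by all 3 fits. The list had 3 higher and 7 lower without co-cultured replicate 3 (12.2% and 21.2% of all genes), and 4 higher and 5 lower with GC offsets (10.4% and 18.3%). The desaturase SCD fell from 666, 623 and 626 CPM to 361, 363 and 484 CPM (log2 fold change -0.67, edgeR adjusted p = 0.0315, SE 0.18), and the acetyl-CoA carboxylase ACACA by 0.61 on the log2 scale (edgeR adjusted p = 0.0343). The SCD call was lost in 9 of 16 alternatives (edgeR adjusted p = 0.0608 to 0.151), among them leaving out lone replicates 1, 2 and 3 or co-cultured replicates 1 and 2, 1 at a time.

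A549 is known for constant activity of NRF2, the factor of the antioxidant response. Of 16 of its targets, 2 fell and none rose (median -0.27, or -0.11 without co-cultured replicate 3). In the full fit 5.4% of all genes fell and 5.97% rose. The calls were 1 higher and 7 lower without co-cultured replicate 3 (12.2% and 21.2% of all genes), and none higher and 8 lower with GC offsets (10.4% and 18.3%). HMOX1, the heme oxygenase, fell from 567, 715 and 735 CPM to 391.6, 449.8 and 298 CPM (log2 fold change -0.82, edgeR adjusted p = 0.0134, SE 0.18). The cystine transporter SLC7A11 fell from 118, 89.3 and 75.6 CPM to 33.6, 28.2 and 66.8 CPM (log2 fold change -1.14, edgeR adjusted p = 0.0444, SE 0.33). Its call was lost in 8 of 16 alternatives (edgeR adjusted p = 0.0605 to 0.185), among them leaving out lone replicates 1, 2 and 3 or co-cultured replicates 1 and 2, 1 at a time, and that of HMOX1 in 3 of 16 alternatives (edgeR adjusted p = 0.0546 to 0.0625), among them leaving out lone replicate 2 or co-cultured replicate 1, 1 at a time. NQO1 was at 1570.0, 1841 and 1876 CPM alone and 1789, 2009 and 1595 CPM in co-culture (edgeR adjusted p = 0.929).

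Of 10 tested connexins and pannexins, which form channels between cells, 2 rose and none fell, where 5.97% and 5.4% of all genes did. Connexin and pannexin calls were 2 higher and 2 lower without co-cultured replicate 3 (12.2% and 21.2% of all genes), and 2 higher and none lower with GC offsets (10.4% and 18.3%). GJB5 had 2, 3 and 3 counts alone and 16, 22 and 14 in co-culture (edgeR adjusted p = 0.00673). GJA1, which encodes connexin 43, was at 122, 91.6 and 79.8 CPM alone and 54.2, 41.3 and 122 CPM in co-culture (edgeR adjusted p = 0.414). Co-cultured replicates 1 and 2 lay below the lone libraries for GJA1, and replicate 3 was level with the highest of them.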
